A study of Homo sapiens with 6 samples.

Results

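Nucleotide synthesis was followed through 49 genes, taken by name: the enzymes that make purine and pyrimidine nucleotides, those that salvage free bases and nucleosides, the kinases that charge nucleoside monophosphates, and the enzymes that trim or clean the pool. All 49 were looked up among the 10140 gene symbols with usable splicing events. Of these, 47 genes had enough reads to be compared, among 9755 genes tested in all. The cells were SKNBE2, a human neuroblastoma line that carries an amplified MYCN gene in every library. They were either Control cells or cells given DFMO (difluoromethylornithine) at 250 µM for 4 days, with 3 libraries in each group. No vehicle was named for the Control group, and a single line was used. Nothing in the labels says whether the libraries of a group came from separate cultures, so the p-values may measure technical spread only.

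DFMO blocks ornithine decarboxylase, the enzyme that opens polyamine synthesis. Purine nucleotides are built stepwise on phosphoribosyl pyrophosphate (PRPP) until inosine monophosphate (IMP) is formed, from which AMP and GMP branch off. In pyrimidine synthesis the ring is made first, as orotate, and is then joined to PRPP to give UMP, the precursor of CTP. Salvage enzymes rebuild nucleotides from bases and nucleosides. Many of the enzymes of both routes are known as targets of MYC proteins, which bind the E-box. Polyamine synthesis itself releases methylthioadenosine, from which MTAP frees adenine, and APRT returns adenine to the AMP pool.

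The deposited values were splicing events, each a percent with its reads, and not gene counts. The transcript amount of a gene was taken as the sum of the reads over its events, per 1e+06 such reads of the library (RPM, reads per 1e+06). These totals ran from 58869134 to 78200256 reads. The amount counts a read once for each event it touches, so it compares a gene between libraries and not one gene with another. Events of a gene can share reads and add up to its amount. Counts of events that moved one way are therefore no separate evidence. In bulk RNA, fewer cells of a type and less RNA per cell cannot be told apart. All 10 noradrenergic neuroblast markers were measured, with Control means from 2.46 to 412 RPM, and MYCN stood at 405 RPM in Control and 417 with DFMO (adjusted p = 0.175, limma). Of these 10 markers, 4 rose and 1 fell, and their part in the results was not tested. Of the 7 mesenchymal markers, 2 were measured (VIM, which rose by 0.093 on the log2 scale, and CD44), and none of the 4 immune, 4 epithelial or 3 endothelial markers reached the measured range.

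With DFMO, 20 of the 47 measured genes fell and 12 rose, with an adjusted p below 0.05 taken as the limit. The share that fell was 42.6% of the members, beside 29.1% of all tested genes. The share that rose was 25.5%, beside 25.4% of all tested genes. The differences were small. None of the 47 reached a 1.5-fold change together with that p, a size that 2.78% of all genes reached in either direction. The member differences ran from -0.38 to 0.56 on the log2 scale, with a median of -0.070. The median over all tested genes was -0.01. From exon events alone the member median was -0.031. In 23 members every DFMO library lay below every Control library, which happened in 31.6% of all genes. In 12 members every DFMO library lay above, beside 27.7% of all genes.

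**Figure D1:**
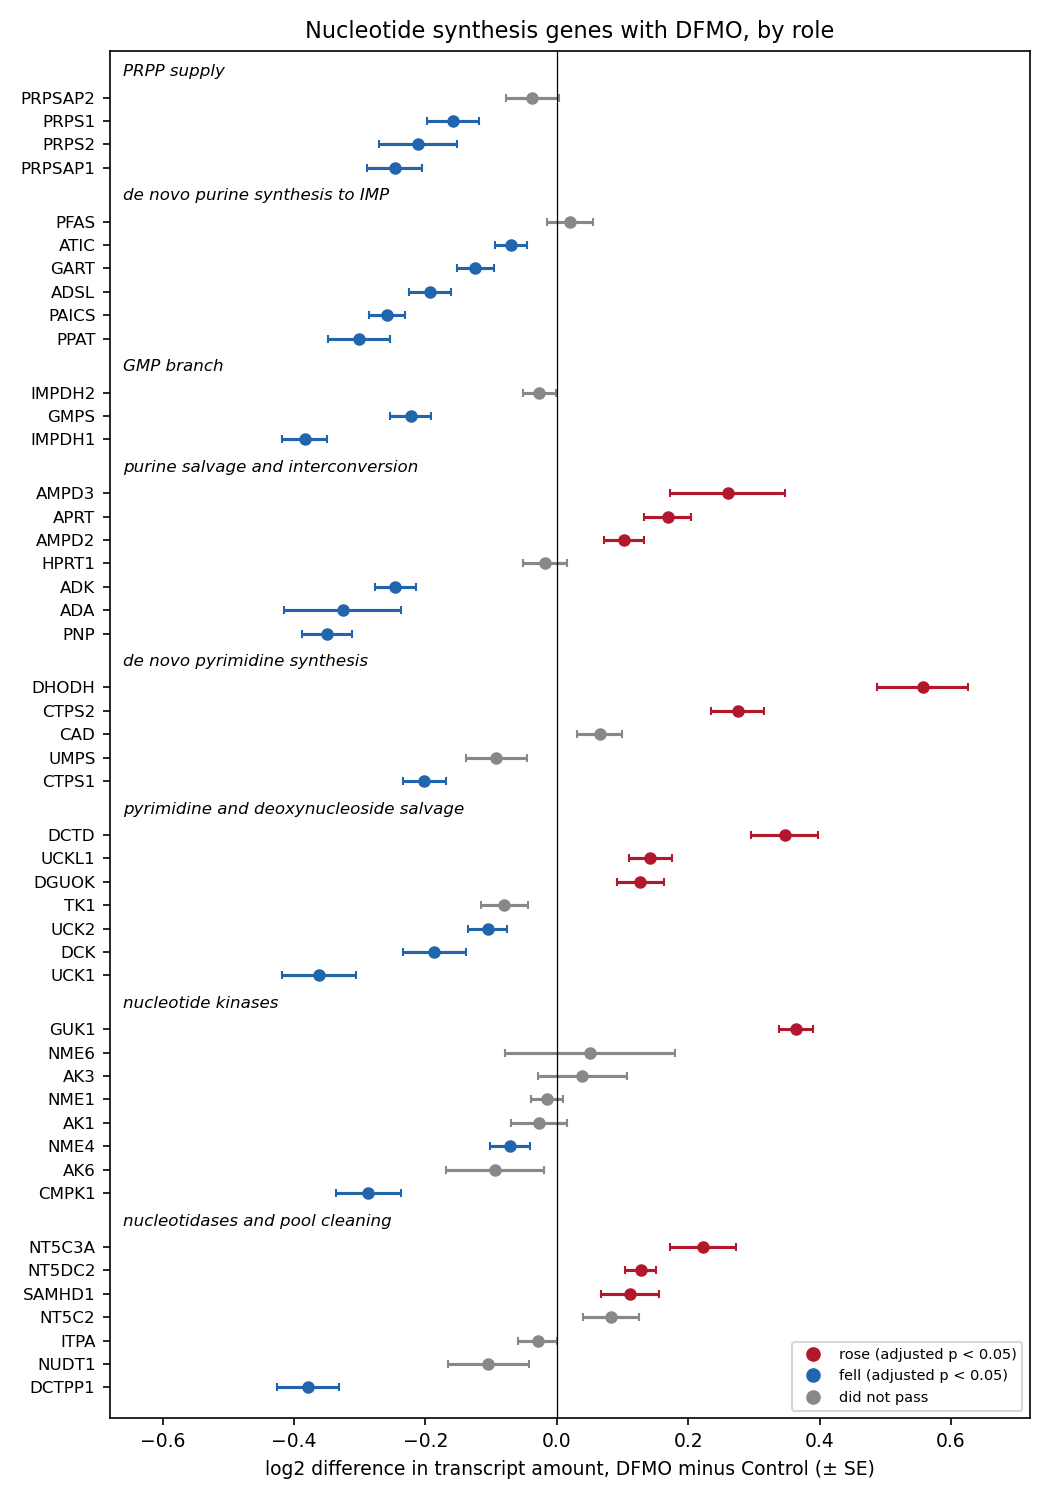
Log2 difference in transcript amount between DFMO and Control (horizontal axis) for the 47 measured genes, grouped by role; points are estimates, bars are standard errors and colours give the call. No gene of the first 3 roles rose, while each of the other 5 roles held genes that rose and genes that fell.

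The calls were not spread evenly over the pathway. Supply of PRPP, the steps to IMP and the GMP branch held 13 measured genes, of which 10 fell and none rose, with a median of -0.19. The other 34 measured genes split into 12 that rose, 10 that fell and 12 that did not pass, with a median of -0.016. This division in 2 was made after the values had been seen, and the difference between its sides was not tested. The plot of members by role shows the same division.

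PRPP is made by the PRPS synthetases, which sit in a complex with the associated proteins PRPSAP1 and PRPSAP2. PRPS1, an X-linked synthetase, stood at 89.6, 87.5 and 90.9 RPM in the 3 Control libraries and at 78.8, 80.8 and 80.2 with DFMO. It fell by 0.16 on the log2 scale (SE 0.040, adjusted p = 0.0014), and the groups did not overlap. From exon events alone PRPS1 did not pass (-0.11, adjusted p = 0.0642). PRPSAP1 fell most in this group, from 88.7, 92.6 and 92.3 to 80.2, 74.0 and 76.3 RPM (log2 difference -0.25, SE 0.042, adjusted p = 2.0e-05). PRPS2, the second X-linked synthetase, fell by 0.21 (adjusted p = 0.0039), with DFMO libraries between 41.0 and 49.1 RPM beside 49.3 to 53.9 in Control. PRPSAP2 did not pass. Its Control values of 89.2, 91.2 and 95.7 overlapped the DFMO values of 91.3, 91.5 and 86.3 RPM (log2 difference -0.037, adjusted p = 0.466).

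Of the 6 enzymes that carry PRPP to IMP, 5 fell. PPAT (chr4:56393362-56435615), the amidotransferase that commits PRPP to purine synthesis, stood at 68.0, 63.7 and 64.7 RPM in Control. With DFMO it stood at 51.8, 52.4 and 54.9, the lowest Control library lying well above the highest DFMO library. Over all events this was the largest fall among the 6 (log2 difference -0.30, SE 0.047, adjusted p = 7.0e-06). PAICS, the bifunctional enzyme that carboxylates the ring intermediate and adds aspartate, fell from 262, 264 and 265 to 218, 224 and 219.5 RPM (log2 difference -0.26, SE 0.028, adjusted p = 2.0e-08). The SD of its Control libraries was 1.41 RPM and that of its DFMO libraries 3.21, both far below the gap between the groups. From intron events alone PAICS and PPAT were nearly equal, at -0.282 and -0.281.

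ADSL, which splits off fumarate here and again on the way to AMP, fell by 0.19 (adjusted p = 1.1e-05). GART, which holds several enzyme activities of the route in a single protein, fell by 0.12 (adjusted p = 4.8e-04). ATIC closes the ring to IMP and changed little: its DFMO libraries lay between 377 and 379.8 RPM beside 395 to 399 in Control, a log2 difference of -0.070 (adjusted p = 0.0182). That call was lost with exon events alone (adjusted p = 0.143) and without Control replicate 2, DFMO replicate 1 or DFMO replicate 3 (adjusted p from 0.0501 to 0.0561). PFAS, which turns the amide of the formylglycinamide intermediate into an amidine, was the member of the route that did not pass. Its libraries overlapped, at 157, 167 and 173 RPM in Control and 169, 164 and 170.4 with DFMO (log2 difference 0.020, SE 0.036, adjusted p = 0.649).

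In the GMP branch the 2 IMP dehydrogenases parted. IMPDH1 (chr7:128392277-128410252) stood at 159, 151 and 153 RPM in Control and at 119, 118 and 118 with DFMO, with no overlap. Its fall was the largest among all 47 members (log2 difference -0.384, SE 0.034, adjusted p = 6.4e-10), and all 22 of its events had fewer RPM with DFMO. DCTPP1 was nearly equal at -0.378 (SE 0.047). From intron events alone DCTPP1 fell more, by -0.44 beside -0.41 for IMPDH1. IMPDH2 (chr3:49024325-49029408), the form known as the main one in proliferating cells, stood at 622, 599 and 624 in Control and at 619.8, 586 and 606 with DFMO. Those ranges overlapped and the difference did not pass (log2 difference -0.027, SE 0.025, adjusted p = 0.383). From intron events alone it passed, at -0.059 (adjusted p = 0.0357). GMPS, which aminates XMP to GMP, fell from 226.5, 243.5 and 232 to 201, 197.5 and 203 RPM (log2 difference -0.22, adjusted p = 1.3e-06), and its 43 events were all lower.

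**Figure D2:**
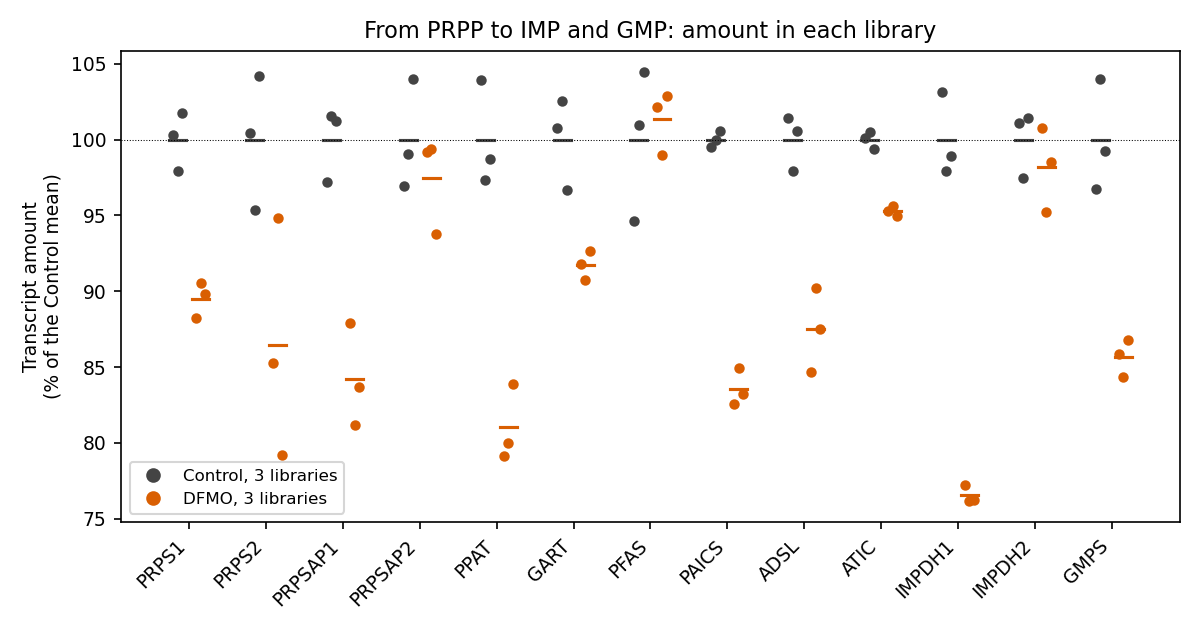
Transcript amount of the 13 genes from PRPP supply to GMP in each library, as a percent of the gene's Control mean (vertical axis, not starting at zero); points are libraries and short lines are group means. The DFMO points lie below every Control point in 10 genes and overlap them in PRPSAP2, PFAS and IMPDH2.

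Purine salvage moved in both directions, with 3 of 7 genes higher and 3 lower. HPRT1, which salvages hypoxanthine and guanine, did not pass: its libraries lay at 147, 144 and 145 RPM in Control and 140.5, 149 and 141 with DFMO (log2 difference -0.018, adjusted p = 0.684). APRT, which salvages adenine, rose from 219.7, 223.5 and 232 to 253, 269 and 238 RPM. The DFMO libraries all lay above Control, by 0.17 on the log2 scale (SE 0.036, adjusted p = 2.6e-04), and all 14 APRT events were higher. MTAP, which frees adenine from the by-product of polyamine synthesis and is not among the 49, stood at 55.4, 56.4 and 57.5 RPM in Control and 55.8, 56.6 and 57.2 with DFMO. Its groups overlapped (adjusted p = 0.973).

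PNP, which cleaves inosine and guanosine, had the largest fall of the purine salvage genes over all libraries, from 142, 135 and 136 to 107, 103 and 113 RPM (log2 difference -0.35, SE 0.038, adjusted p = 2.2e-08). The groups were far apart. ADA, which deaminates adenosine, fell by 0.33 (SE 0.089, adjusted p = 0.0030; 0.21 with the mean of log reads over exon events), and ADK, which phosphorylates it, fell by 0.25 (SE 0.031, adjusted p = 2.4e-07). Without Control replicate 1 ADA was at -0.37 and PNP at -0.33. Without DFMO replicate 3 they were at -0.42 and -0.38, so in both cases ADA fell more. The AMP deaminases rose. AMPD3 went from 11.8, 11.6 and 10.1 to 13.3, 13.2 and 13.9 RPM, with no overlap (log2 difference 0.26, SE 0.087, adjusted p = 0.0137). Its call was lost without Control replicate 3 (adjusted p = 0.0906) or DFMO replicate 3 (adjusted p = 0.0501). AMPD2 rose by 0.10 (adjusted p = 0.0063), and its call was lost from intron events alone (adjusted p = 0.0528).

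The pyrimidine route held the largest rise. DHODH (chr16:72008588-72027664), the mitochondrial enzyme that oxidises dihydroorotate to orotate, stood at 18.1, 18.5 and 18.7 RPM in Control. With DFMO it stood at 27.8, 28.4 and 25.8 RPM, and no library overlapped. The difference was 0.56 on the log2 scale (SE 0.069, adjusted p = 1.9e-07), or 1.47-fold, and all 14 events were higher. Without DFMO replicate 3 the difference was 0.60 and passed 1.5-fold, and without DFMO replicate 2 it was 0.53. From intron events alone the DHODH difference was 0.48, and with the mean of log reads over exon events 0.43. Both had an adjusted p below 0.05. The genes for the enzymes on either side of this step did not pass. CAD, whose protein starts the route, stood at 284, 322 and 319 RPM in Control and 320.3, 325 and 321 with DFMO, so Control replicate 1 stood apart below the rest (log2 difference 0.065, adjusted p = 0.112). Without that library the CAD difference was 0.0081 (adjusted p = 0.823). CAD passed without Control replicate 2 (adjusted p = 0.0393) or Control replicate 3 (adjusted p = 0.0446), and with exon events alone (adjusted p = 0.0329). UMPS, which turns orotate into UMP, had a difference of -0.092 (SE 0.047, adjusted p = 0.0978), with Control between 64.1 and 68.9 and DFMO between 60.6 and 65.3 RPM. From intron events alone UMPS passed, at -0.16 (adjusted p = 0.0029).

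The 2 CTP synthetases moved in opposite directions. CTPS1, the form best known from dividing lymphocytes, fell from 236, 233.5 and 254.5 to 208, 207.5 and 213 RPM (log2 difference -0.20, SE 0.032, adjusted p = 9.4e-06). CTPS2 rose from 78.3, 84.6 and 84.8 to 100.3, 100.5 and 99.1 RPM (log2 difference 0.28, SE 0.041, adjusted p = 2.8e-06). Neither overlapped between groups, and 44 of 45 CTPS1 events were lower while 44 of 46 CTPS2 events were higher.

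The shift between paralogues was also taken within each library, as the log2 ratio of the pair, for 5 pairs. The CTPS2 to CTPS1 ratio rose by 0.48 without overlap, the widest of the 5. The IMPDH1 to IMPDH2 ratio had a difference of -0.36, UCK1 to UCK2 of -0.26 and AMPD3 to AMPD2 of 0.16, also without overlap. Each of these 4 gave p = 0.1 in an exact two-sided permutation test, the smallest that 3 libraries against 3 can give, and 0.125 after Benjamini-Hochberg adjustment over the 5 pairs, so none could pass. The PRPS2 to PRPS1 ratio overlapped (difference -0.053, p = 0.6 in the same exact test).

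Pyrimidine and deoxynucleoside salvage also split, with 3 of 7 measured genes higher and 3 lower. UCK1, a uridine and cytidine kinase, fell from 59.5, 59.3 and 51.7 to 45.7, 42.3 and 44.1 RPM (log2 difference -0.36, SE 0.056, adjusted p = 6.1e-06). Its groups did not overlap although Control replicate 3 was nearer to DFMO. UCK2, the form known to be raised in tumours, fell by 0.10 (adjusted p = 0.0042), and UCKL1, a related protein, rose by 0.14 (adjusted p = 7.9e-04). DCTD, which deaminates dCMP to dUMP and so feeds thymidylate synthesis, rose from 51.5, 52.2 and 56.2 to 65.3, 72.5 and 66.0 RPM (log2 difference 0.35, SE 0.051, adjusted p = 2.4e-06). All 11 of its events were higher.

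Among the deoxynucleoside kinases, TK1, the thymidine kinase of S phase, stood at 120, 119.6 and 118 RPM in Control and 115, 112 and 111 with DFMO. The groups did not overlap, but the difference did not pass (log2 difference -0.080, SE 0.035, adjusted p = 0.0581). It passed from intron events alone (-0.16, adjusted p = 1.5e-04) and with exon inclusion reads halved (adjusted p = 0.0438). DCK, which phosphorylates deoxycytidine, fell by 0.19 (adjusted p = 0.0019). DGUOK, the mitochondrial deoxyguanosine kinase, rose by 0.13 (adjusted p = 0.0039), but its exon usage also changed, as described with the splicing events, and from intron events alone the rise did not pass (0.076, adjusted p = 0.0561). TK2, the mitochondrial thymidine kinase, had a single usable event, an intron whose Control libraries held 16, 20 and 24 reads and whose DFMO libraries held 52, 23 and 20. That is under the 1 RPM needed for a test, and DFMO replicate 1 alone stood apart.

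**Figure D3:**
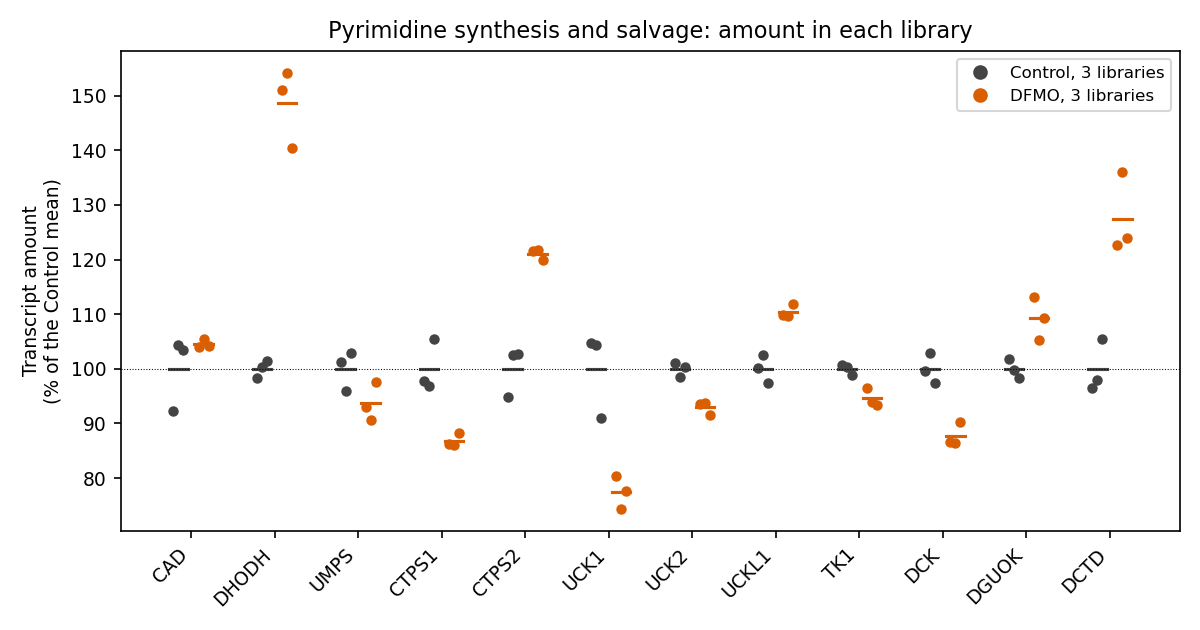
Transcript amount of 12 pyrimidine synthesis and salvage genes in each library, as a percent of the gene's Control mean (vertical axis, not starting at zero); points are libraries and short lines are group means. DHODH, CTPS2, UCKL1, DGUOK and DCTD lie above Control in every DFMO library, and CTPS1, UCK1, UCK2, TK1 and DCK lie below.

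Most of the kinases that turn monophosphates into di- and triphosphates did not pass: 5 of 8 measured. GUK1 (chr1:228139962-228148984), which phosphorylates GMP, was the exception that rose. It stood at 415, 424 and 436 RPM in Control and 538, 556 and 547 with DFMO, without overlap, and all 30 events were higher (log2 difference 0.36, SE 0.025, adjusted p = 7.0e-12). CMPK1, which phosphorylates CMP and UMP, fell from 60.9, 61.2 and 59.2 to 52.1, 49.1 and 47.2 RPM (log2 difference -0.29, SE 0.050, adjusted p = 2.4e-05). Its groups did not overlap.

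NME4, the mitochondrial nucleoside diphosphate kinase, was called lower by a narrow margin (log2 difference -0.071, adjusted p = 0.0465). With the mean of log reads over its exon events the sign turned (0.095, adjusted p = 0.0430), and from intron events alone it was -0.13. The call was also lost when any of Control replicates 2 and 3 and DFMO replicates 2 and 3 was left out (adjusted p from 0.107 to 0.164). The other kinases had differences of -0.014 for NME1, 0.050 for NME6, -0.027 for AK1, 0.039 for AK3 and -0.094 for AK6. NME1 lies beside its near-identical copy NME2 and shares readthrough transcripts with it, and AK6 shares its locus with TAF9, so their reads may be split between genes. AK4 had no usable event.

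Among the enzymes that break down or clean the pool, DCTPP1, which hydrolyses modified dCTP, was the one that fell. It went from 68.6, 68.8 and 66.8 to 53.1, 49.9 and 53.7 RPM, a gap far wider than the spread (log2 difference -0.38, SE 0.047, adjusted p = 1.9e-07). NT5C3A, a pyrimidine 5′-nucleotidase, rose from 47.5, 44.7 and 46.4 to 52.9, 55.6 and 53.4 RPM, also without overlap (log2 difference 0.22, SE 0.050, adjusted p = 5.1e-04). The NT5C3A difference was 0.35 from exon events alone and 0.14 from intron events alone, and passed in both. NT5DC2, a member of the nucleotidase family, rose by 0.13 (adjusted p = 6.6e-05). SAMHD1, which hydrolyses dNTPs, rose by 0.11 (adjusted p = 0.0362), but not from intron events alone (0.074, adjusted p = 0.167). The SAMHD1 call was lost without Control replicate 2, Control replicate 3 or DFMO replicate 1 (adjusted p from 0.063 to 0.173). NT5C2 (0.083), ITPA (-0.029) and NUDT1 (-0.10) did not pass.

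Exon events and intron events of a gene were also summed apart. Both kinds were available for 46 of the members, and the sign was the same in 42 of them, including all 32 that rose or fell. The 2 sums can draw on the same junction reads, so they are no independent check.

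**Figure D4:**
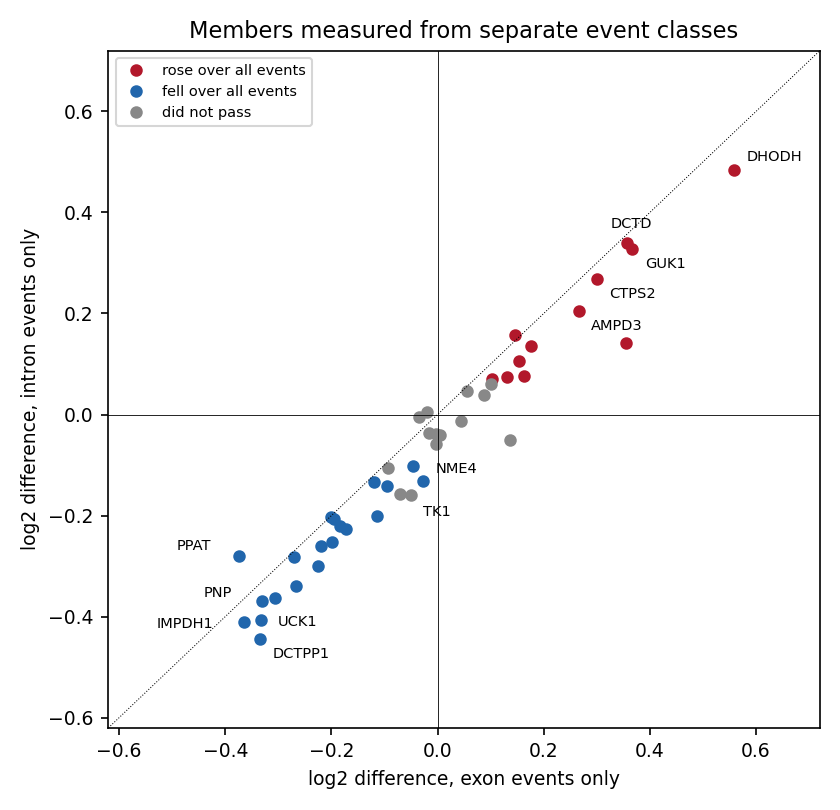
Log2 difference from exon events alone (horizontal) against that from intron events alone (vertical) for 46 members; each point is a gene, coloured by its call over all events, and the dotted line marks equal values. All genes that rose lie at the upper right and all that fell lie in the lower left.

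Other genes of nucleotide metabolism were listed beside the 49: 57 symbols, of which 35 were measured, 7 rose, 12 fell and 16 did not pass (median log2 difference -0.038). Those that rose were 20% and those that fell 34.3%, near the 25.4% and 29.1% of all tested genes. Deoxynucleotide synthesis was mixed, with 3 of 10 measured genes higher, 4 lower and 3 that did not pass. Ribonucleotide reductase makes deoxynucleotides from ribonucleotides. Its large subunit RRM1 fell from 301, 298 and 295 to 253, 251 and 257 RPM (log2 difference -0.23, SE 0.027, adjusted p = 7.8e-08). Its small subunit RRM2 fell from 364, 367 and 366 to 331, 343 and 337 (log2 difference -0.12, adjusted p = 3.5e-04). Neither overlapped between groups. TYMS, which makes thymidylate, fell by 0.12 (adjusted p = 3.2e-04), and DTYMK, the kinase that acts on thymidylate, fell by 0.37 (adjusted p = 2.4e-09). DUT, which hydrolyses dUTP to the dUMP used by TYMS, rose by 0.18 (adjusted p = 1.8e-05), and NME7, of the nucleoside diphosphate kinase family, rose by 0.34 (adjusted p = 3.6e-05). NME3, another nucleoside diphosphate kinase, was the single gene of the 35 that passed 1.5-fold: it rose from 21.5, 21.9 and 21.2 to 36.3, 33.0 and 32.3 RPM (log2 difference 0.64, SE 0.066, adjusted p = 8.4e-09). Folate enzymes supply formyl groups to the purine ring. Of the 7 measured, SHMT2 (-0.18) and MTHFD1 (-0.15) fell, ALDH1L2 rose by 0.28 and 4 did not pass.

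The E-box in its canonical form, CACGTG, reads the same on both strands. It was searched for in RefSeq promoter windows of 300 bases (250 before and 50 after each start, GRCh38.p14), a table that held 47 of the 49 genes. It occurred in 12 of these 47 genes, or 25.5%, beside 8.77% of 27305 genes in the table. The 27305 were not limited to genes measured here, and the difference in shares was not tested. An element shared by PPAT and PAICS, described below, counts for both. Members can have several windows, and counted by window the shares were 16.2% of 80 and 7.26% of 35116. The 12 genes did not share a direction: 5 fell, 3 rose, 3 did not pass and AK4 was not measured. Among all measured members 42.6% fell and 25.5% rose, and whether genes with the motif differed from the rest was not tested. PPAT and PAICS, which both fell, lie head to head on chromosome 4. The PPAT start at position 56435615 and a PAICS start at position 56435752 were 137 bases apart, and a single CACGTG at chr4:56435792-56435797 stood in the windows of both. The stretches around the motif are shown, on each gene's own strand, for that shared element, for 2 further genes that fell (ATIC at chr2:215312001-215312030 and DCTPP1 at chr16:30429792-30429821, minus strand) and for DHODH, which rose (chr16:72008573-72008602). The PPAT stretch covers chr4:56435780-56435809 on the minus strand. Capitals mark the E-box.
PPAT: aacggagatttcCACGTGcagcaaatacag
ATIC: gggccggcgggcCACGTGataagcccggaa
DCTPP1: ggagggttcctcCACGTGgtcgggaagcgg
DHODH: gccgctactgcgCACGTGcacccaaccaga
Counted from the RefSeq start of the window, the motif shown begins 182 bases before the PPAT start, 46 before ATIC, 9 before DCTPP1 and 159 before DHODH. That DHODH start lies downstream of the first base of the GENCODE gene given above, which the motif overlaps. The ATIC and DCTPP1 motifs shown lie inside the GENCODE genes. These begin farther upstream, at chr2:215311817 for ATIC and, on the minus strand, at chr16:30430075 for DCTPP1. ATIC holds a second CACGTG at chr2:215312088-215312093, after its start. A match describes these letters only, and no binding was measured here.

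Splicing was read from the percents of the same events. The 48 members with usable events held 1253 sites, of which 718 had a mean below 5% and 482 above 95%. The remaining 53 sites, in 25 genes, were tested: 33 exons, 9 introns, 6 acceptors and 5 donors. With an adjusted p below 0.05 and at least 10 points between group means, 2 exons were called, both with more inclusion, and no intron, acceptor or donor. Over all genes, 3.47% of exons, 3.8% of introns and 1.64% of acceptors and donors were called. At an unadjusted p below 0.05 the members had 10 of 33 exons (30.3%, beside 20.6% of all tested exons), 4 of 9 introns (22.1% of all), 1 of 6 acceptors (13.1% of all) and 0 of 5 donors (14.9% of all). Mean inclusion was higher with DFMO in 22 of the 33 exons, with a median difference of 1.9 points beside 1.24 over all 7465 exons tested.

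The first called exon was in DGUOK, at chr2:73957125-73957240 (GRCh38), the fifth exon of the GENCODE 29 transcript DGUOK-201 and coding there. It was included in 50.2%, 46.9% and 51.3% of Control reads, on 563 to 827 reads. With DFMO the level was 61.8%, 63.4% and 61.8%, on 725 to 900 reads. The groups lay well apart, 49.5% ± 2.28 against 62.3% ± 0.92 (SD, n = 3 each), a difference of 12.9 points (adjusted p = 0.0022, limma). The exon before it, listed in the table as 106 nt (chr2:73950627-73950732), went the same way, from 50.9% ± 2.09 to 59.8% ± 1.90 (SD, n = 3 each). It passed the p (adjusted p = 0.0194) but not the size, with 8.98 points. Exon 2 (113 nt) had 12.2% ± 0.58 in Control and 17.2% ± 0.84 with DFMO and did not pass (adjusted p = 0.0663). The 170-nt form of exon 3 stood at 85.2% and 86.7% (adjusted p = 0.566).

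Exons 4 and 5 of DGUOK are shown because exon 5 and a 106-nt form of exon 4 passed the test's p with more inclusion. In GENCODE 29 only DGUOK-205 holds that 106-nt form as an exon, and not as a coding exon of a protein-coding transcript. The frames given below use the 148-nt exon 4 of DGUOK-201 and not the tested 106-nt form. The sequences are those of GENCODE 29 on the plus strand (GRCh38, chr2:73950585-73950732 and chr2:73957125-73957240), and capitals mark the bases that the table lists as the exon.
DGUOK exon 4: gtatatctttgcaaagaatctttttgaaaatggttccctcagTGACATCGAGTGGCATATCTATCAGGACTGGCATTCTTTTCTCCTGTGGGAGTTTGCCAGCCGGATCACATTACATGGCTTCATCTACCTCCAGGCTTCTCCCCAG
DGUOK exon 5: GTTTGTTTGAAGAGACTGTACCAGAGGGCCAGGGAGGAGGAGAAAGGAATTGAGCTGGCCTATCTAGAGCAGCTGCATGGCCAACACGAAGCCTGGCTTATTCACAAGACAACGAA
Together the annotated exons hold 264 bases, or 88 whole codons. With every exon present, DGUOK-201 keeps an open frame of 277 codons from its start. Without exons 4 and 5 the frame has 189 codons and ends at the same stop. Leaving out exon 5 alone gives 200 open codons, exon 4 alone 150 and exon 2 alone 89, since none of those lengths is a multiple of 3. Apart from the last, these frames keep exon 2, which was included in only 12.2% of Control and 17.2% of DFMO reads. Frames that lack exon 2 together with exon 4 or 5 were not worked out. The table does not say which exons were joined in the same molecule.

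The second called exon was in NME4, at chr16:398208-398394 (187 nt). Its inclusion was 15.9%, 19.0% and 17.5% in Control and 29.8%, 30.9% and 33.0% with DFMO, with no overlap. The means were 17.5% ± 1.59 and 31.2% ± 1.62 (SD, n = 3 each), 13.8 points apart (adjusted p = 0.0128). No protein-coding transcript of GENCODE 29 holds an exon of exactly these bounds as coding. Of the transcripts that hold it, 1 is marked for nonsense-mediated decay. Exons that cover these bases with other bounds were not looked up, and the site lies within the coding span of a protein-coding transcript. The reads were uneven over its junctions: in Control replicate 1, 7 reads joined the exon on the first side, 47 on the second, and 143 skipped it. In DFMO replicate 1 these were 30, 138 and 197. The calls of both exons were lost in a fit without the trend of the variance on counting error (adjusted p = 0.217 for DGUOK and 0.137 for NME4).

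**Figure D5:**
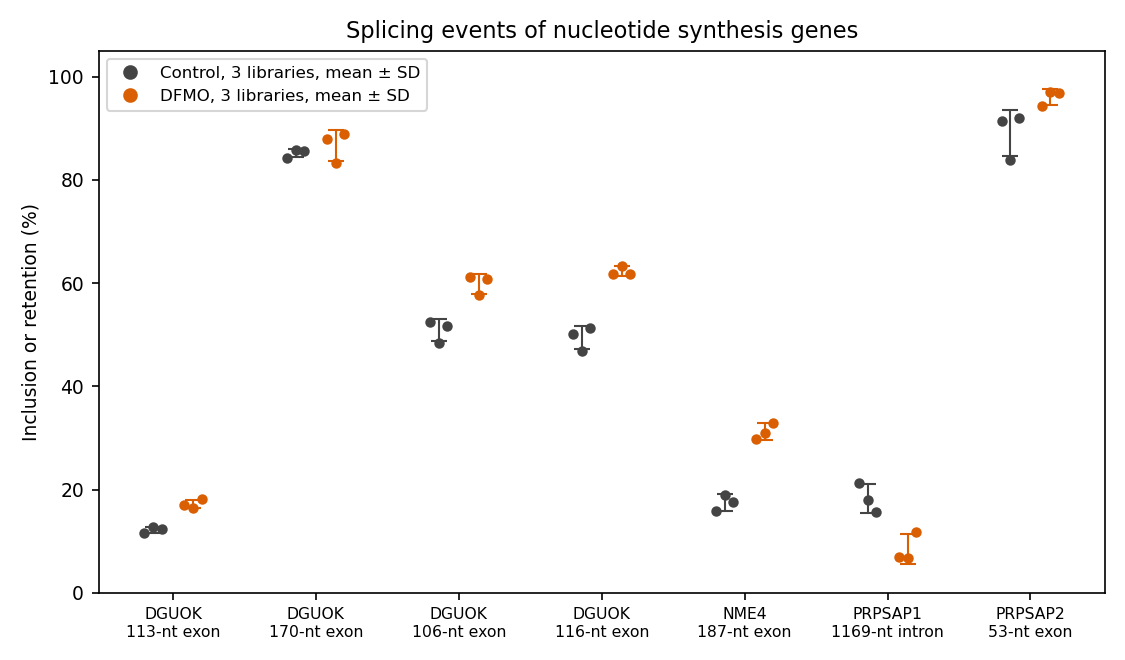
Inclusion of exons or retention of an intron (vertical axis, percent) in each library for 7 events of DGUOK, NME4, PRPSAP1 and PRPSAP2; points are libraries and bars are the mean ± SD of 3. The groups do not overlap except in the 170-nt DGUOK exon.

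PRPSAP2 and PRPSAP1, the PRPP synthetase partners, each had an event that passed the p but not the size. A 53-nt exon of PRPSAP2 (chr17:18867282-18867334), coding in most annotated transcripts that hold it, was included at 91.4%, 83.9% and 91.9% in Control and 94.2%, 96.9% and 96.9% with DFMO. That was 6.94 points (adjusted p = 0.0301), with Control replicate 2 lower than the rest. An intron of PRPSAP1 (chr17:76311701-76312869) was retained at 21.2%, 18% and 15.7% in Control and 6.91%, 6.67% and 11.9% with DFMO, without overlap. The difference was -9.83 points (adjusted p = 0.0012), and it passed 10 points without Control replicate 3 (-11.1) or DFMO replicate 3 (-11.5). All reads into this intron lay at its first listed boundary, 77, 54 and 63 in Control and 30, 20 and 43 with DFMO, and 0 at the other, so they do not show retention over its whole length.

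The other 48 tested sites did not pass. A 58-nt exon of NT5C2 had 3.73% ± 1.14 in Control and 11.98% ± 3.53 with DFMO (SD, n = 3 each), with an adjusted p of 0.0609. An exon of ADSL (144 nt) went the other way, at 92.2% and 87.2% (adjusted p = 0.0731). In IMPDH1, the member with the largest fall in amount over all events, an intron of 389 nt stood at 26.6% ± 2.04 and 16.9% ± 2.18 (adjusted p = 0.176), on as few as 55 reads in a library.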

How the data were processed

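Per the labels, stranded libraries were made from RNA of SKNBE2 cells and read singly, and the submitters' processing notes name GRCh38. Which aligner and splicing caller were used is not given in the sources used here. For each library the deposited table gave a percent for each event and a quality text with a coverage score and reads. The reads, taken from the quality text, gave back the percents within 0.03 points, which is no independent check since inclusion reads appear to be the total split by the percent. Of 721551 entries, 1340 had no gene symbol (0.0397% to 0.0414% of reads). As those reads need not be whole, no count model was used.

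Amounts were summed over events scored LOW or better in all 6 libraries, as log2 of RPM plus 0.5, for genes with a mean of at least 1 RPM. The 0.5 added to RPM understates changes of low genes. The fit used R 4.3.3 with limma 3.58.1, a mean-variance trend and Benjamini-Hochberg adjustment over 9755 genes, two-sided. Splicing was fitted by limma on log2 odds (0.5 added to each read number) for events with at least 10 reads in every library and a mean of 5% to 95%, adjusted within each class. Both fits were run on simulated data, with normal errors for amounts and binomial reads for exon events only. The simulated exon reads held no spread between libraries beyond counting, so that run does not check the splicing calls for such spread.

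The members, roles and lists were chosen with earlier results of these data known. Values in every library are given for entry genes of each branch, the highest and lowest of each role, and a few others chosen after their values were seen. Genes outside the 49 were named from a short list and by passing 1.5-fold, with some called genes added after their values were seen; a further gene of that list is not reported here. Between libraries of a group the variance was 2.01 to 2.36 times that of counting alone. A read can count in several events, so this shows only that no libraries were identical.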

Additional observations from a re-analysis of the deposited data

How the results depend on the processing

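Across the 12 other settings, 8 to 13 members rose and 17 to 23 fell, the extremes both ways coming from exon or intron events alone. Leaving out each library gave 11 to 12 that rose, 18 to 20 that fell and 0 to 1 past 1.5-fold (1 is DHODH without DFMO replicate 3). Of the genes named as changed, 16 of 20 that fell and 8 of 12 that rose kept their call under every setting run; AMPD2, AMPD3, DGUOK, SAMHD1, ATIC, NME4, PRPS1 and UCK2 lost it under at least 1. The median was -0.031 with exon events and -0.029 with the mean log over exon events, and -0.070 to -0.058 without a library. Member exons called with more inclusion numbered 0 without the trend on counting variance, 4 with no size threshold and 2 to 3 without a library. Events called lower numbered 1 with no size threshold and 0 to 1 without a library. The cause was not tested.

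Same-numbered libraries did not deviate together (correlations -0.017, -0.0045 and -0.043). No pairing by number was thus seen, which cannot show whether the samples were made in pairs. With a replicate block 12 members rose and 19 fell, and 2 exons were called; NME4 was at -0.071 (adjusted p = 0.0602), and no other member's call changed.

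Signs turned in these cases, of which NME4 passed the test on the opposite side. With intron events alone they were -0.013 for PFAS, -0.051 for AK3, 0.0045 for ITPA and -0.030 for MTAP. With the mean log over exon events they were 0.013 for HPRT1, 0.0068 for NME1 and 0.095 for NME4. With exon events alone NME1 was at 0.0055, and with exon inclusion reads halved MTAP was at -0.0080. Leaving out each library in turn gave -0.019 to 0.052 for PFAS, -0.033 to 0.0028 for NME1, -0.081 to 0.15 for NME6, -0.069 to 0.020 for AK1, -0.010 to 0.086 for AK3 and -0.011 to 0.016 for MTAP.

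Depth limits the low members most: NME6 rested on 185 to 291 reads per library and TK2 on 16 to 52.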
